A study of Mus musculus with 924 samples.

Results

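Nuclei of dentate granule neurons and of CA1 pyramidal neurons from the adult mouse hippocampus were compared gene by gene. The comparison rests on 289 nuclei of the 924 in the series, 236 granule nuclei and 53 CA1 nuclei, chosen by the genes that each nucleus held. All came from C57BL/6 mice of 12 weeks, with no transgene or treatment named. The dentate gyrus or CA1 was cut out under the microscope and fixed in an RNA preservative. Single nuclei were then sorted by flow cytometry and read with a version of Smart-seq2, a method that amplifies whole transcripts from 1 nucleus per well. A nucleus holds newly made and retained RNA, so the values describe nuclear RNA and not the RNA of the soma or dendrites.

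A nucleus of a dentate dissection counted as granule when it held Prox1, at least 2 of C1ql2, C1ql3, Fam163b, Glis3 and Sema5a, and no Gad2. This kept 236 of 305 dentate nuclei. Of the others, 43 had no Prox1, 41 held Gad2 and 42 held fewer than 2 of the 5 genes, with overlap between these reasons. A nucleus of a CA1 dissection counted as CA1 pyramidal when it held at least 3 of Cpne7, Sv2b, Neurod6, Dkk3, Tenm4 and Khdrbs3, at most 1 of Prox1, C1ql2, Glis3 and Sema5a, and no Gad2, which kept 53 of 99. Just inside the thresholds were 3 granule nuclei with 2 of the 5 genes and 5 CA1 nuclei with 3 of the 6. Just outside were 1 dentate nucleus with 1 of the 5 genes and 4 CA1 nuclei with 2 of the 6. On the other threshold, 9 of the 53 CA1 nuclei held 1 of the 4 granule genes, and 1 CA1 nucleus that met the rest of the rule held 2. Of the granule nuclei, 8 held 3 or more of the 6 CA1 genes, on which the granule rule set no limit. The number after the letter A in the labels defined a preparation. There were 4 granule preparations, numbered 1 to 4, with 89, 39, 58 and 50 nuclei, and 2 CA1 preparations, numbered 1 and 3, with 30 and 23. Whether a number stands for an animal is not stated. The p-values below thus reflect variation between preparations only, and that variation may be technical.

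The 13 rule genes describe how the groups were made and are not findings. Prox1, the homeobox factor that sets granule identity, was held by all granule nuclei by rule, and by 6.67% and 0% of the nuclei in CA1 preparations 1 and 3. Neurod6, a basic helix-loop-helix factor of pyramidal neurons, was held by 76.7% and 56.5% of CA1 nuclei, against 3.37%, 2.56%, 0% and 2% in granule preparations 1 to 4.

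Granule neurons receive the main cortical input to the hippocampus through the perforant path, fire sparsely, and send zinc-rich mossy fibres with large boutons onto CA3 neurons. CA1 pyramidal neurons receive CA3 input through the Schaffer collaterals and carry the output of the hippocampus to the subiculum and cortex. Both are excitatory and use glutamate, so the comparison sets side by side a pair of related neuron classes at opposite ends of the hippocampal circuit. Each preparation was given 1 level per gene, the mean over its nuclei of log2(value + 1), brought to a common distribution across the 6 preparations by quantile normalization. A difference below is the granule mean minus the CA1 mean of these levels, with its SE. In such means, fewer nuclei holding a transcript and less RNA per nucleus cannot be told apart, so the share of nuclei in which a gene was detected is given where it helps.

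The CA1 nuclei held more genes, but unevenly. A gene counted as detected in a nucleus at a deposited value above 1 after back-transformation. The median nucleus held 4635, 4845, 4709 and 4888 detected genes in granule preparations 1 to 4 (mean 4769 ± 118, SD, n = 4), and 6263.5 and 4977 in CA1 preparations 1 and 3 (mean 5620.25 ± 909.7, SD, n = 2). An exact permutation test gave p = 0.133, the smallest that 4 against 2 preparations allow. The levels of all tested genes correlated across genes at 0.942 to 0.964 between granule preparations, 0.880 between the CA1 preparations and 0.791 to 0.846 between the groups. Levels more than 2 log2 units apart were seen for 66 to 275 genes between granule preparations, for 1124 between the CA1 preparations and for 1368 to 2095 between groups. With 2 preparations that differ more from each other, the CA1 side is the less precise. Ribosomal protein transcripts also moved with the groups: 24 of 36 were higher in granule nuclei and none lower. Over all tested genes, 9.47% were higher and 9.95% lower. Of the 24, 12 kept the call whichever single preparation was left out. The summed share of the 36 in a nucleus's signal was 1.43% to 1.78% in granule and 0.619% to 0.965% in CA1 preparations. When detected genes per preparation entered the fit as covariate, in place of quantile normalization, 1185 of the 2172 calls described next were kept (54.6%), and 1583 (72.9%) in nuclei with 4000 to 6500 detected genes. Besides CA1 markers and immediate early genes, the covariate ended the calls of further genes named below. They were Bcl11a, Cacna1h, Cck, Flrt2, Jag2, Kcnc1, Kcnh1, Lingo1, Malat1, Nrxn3, Ntrk2, Pcdh8, Prkcb, Slc1a2, Syt12 and Tenm1. Their limma adjusted p ran from 0.0604 for Kcnh1 to 0.745 for Tenm1. The part of RNA content in the results was not tested.

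Of 11188 genes tested with limma, 1059 (9.47%) were higher and 1113 (9.95%) lower in granule nuclei at an adjusted p below 0.05, 2172 (19.4%) in all. The values as deposited, without quantile normalization, gave 4.93% of the 11188 genes as higher and 16.3% as lower. The excess of lower calls on that scale went with a median difference over all genes of -0.49, against -0.01 after normalization, so differences are given relative to a centre near 0. Preparations of the groups did not overlap for 4218 genes (37.7%). Without the rule, over all nuclei of the dissections, 838 genes were higher and 822 lower, and 1418 of the 2172 genes kept their call. When the log2 was taken of the mean value in place of the mean of log2 values, 1050 kept it (48.3%). Among the genes named below, it ended the calls of Cacna1b, Fgf12, Gabra4, Gria1, Grin3a, Hs6st2, Jag2, Kcnh1, Lmo3, Pcdh8, Pcdh10, Pcdh15, Rims2, Slc1a2, Tenm1, Cck, Cnih2 and Bdnf. It also ended those of the early genes Egr4 and Nptx2 and of the CA1 markers Lefty1, Pou3f1 and Zdhhc2.

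Markers that the rule did not use followed the labels of the dissections. All 26 granule markers outside the rule had positive differences, and 25 were called higher (background 9.47%), with a median difference of 5.24. The exception was Mlip at 0.20. Of 21 CA1 markers tested, 16 were called lower in granule nuclei (background 9.95%), with a median of -2.82. Lmo3, a LIM-only transcriptional cofactor on the CA1 list, went the other way and was higher in granule nuclei by 3.65 ± 0.65. The remaining 4, Ndst4, Ptgs2, Bok and Rgs14, lay between -0.84 and 0.27 and did not pass. These markers are known region genes and the groups were built from other genes of the same nuclei, so the counts describe the nuclei and are no independent test.

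The CA1 markers were less uniform between the CA1 preparations than the granule markers were between granule preparations. Mpped1, a metallophosphoesterase gene, had levels of 8.92 and 9.47 in the CA1 preparations and 0.30, 0.05, 0.03 and 0.22 in the granule preparations. It was the most clear-cut CA1 gene and was detected in 3.37%, 0%, 0% and 2% of granule nuclei. Pou3f1, a POU-domain factor of CA1 neurons, stood at 4.81 in CA1 preparation 1 and 0.95 in CA1 preparation 3. Fibcd1, a marker of dorsal CA1, stood at 7.24 and 4.67, and its difference from granule was -4.65 within number 1 and -0.53 within number 3. The call of 4 of the 16 CA1 markers (Fibcd1, Pou3f1, Lefty1 and Zdhhc2) ended without CA1 preparation 1. Without it, Fibcd1 differed by -1.50 (limma adjusted p = 0.124) and Zdhhc2 by -1.55 (limma adjusted p = 0.0711), and Pou3f1 and Lefty1 were too low to be tested. On the granule side, Tdo2, a tryptophan-degrading enzyme, was found in 42 of 236 granule nuclei and in 0 of 53 CA1 nuclei, which allows a share of up to 5.66%, and was too low to be tested without granule preparation 3.

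The strongest differences spanned signalling proteins, transporters and enzymes. Dock10, which activates small GTPases and shapes dendritic spines, had levels of 7.78, 7.99, 7.55 and 8.28 in granule preparations and 0.36 and 1.17 in CA1 preparations. It differed by 7.14 ± 0.57 (limma adjusted p = 6.6e-08). The groups were far apart and the granule preparations close together. Mapk3, which encodes the kinase ERK1, reached 6.79, 7.69, 7.66 and 6.47 against 0.76 and 1.14, a difference of 6.20 ± 0.59. Rasgrf2, an exchange factor that feeds the same kinase pathway, differed by 6.13 ± 0.58, from 6.51, 7.57, 7.37 and 7.61 against 1.44 and 0.82. Both were low in both CA1 preparations. Slc4a4, a sodium bicarbonate cotransporter, was higher by 6.06 ± 0.57. Gprc5b, an orphan G protein-coupled receptor, was higher by 6.22 ± 0.60. Phxr4 was higher by 6.19 ± 0.58, but its annotated interval on chr9 (13431361 to 13432751) lies inside Maml2 (13296561 to 13709533), which was higher by 7.28 ± 0.60, and reads of the pair may not be separable.

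**Figure D1:**
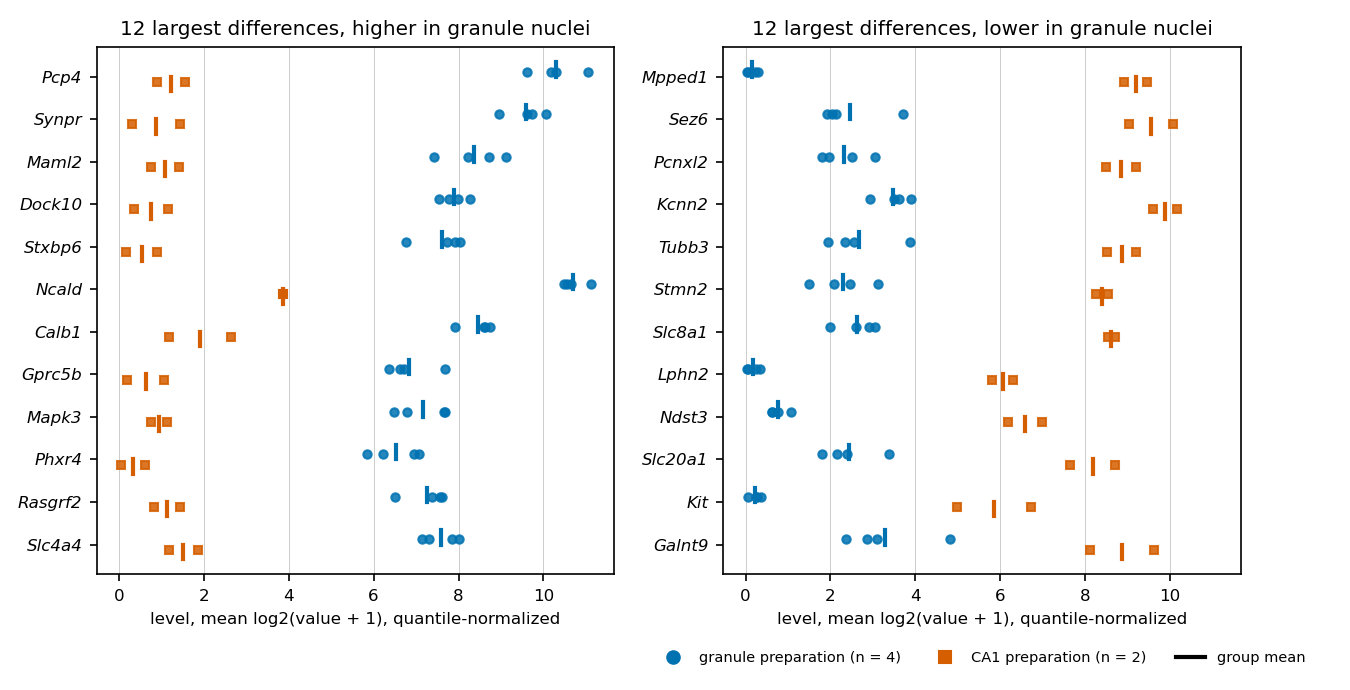
Levels (mean log2(value + 1) per preparation, quantile-normalized) of the 12 genes with the largest differences in each direction; circles are the 4 granule preparations, squares the 2 CA1 preparations, and short vertical lines the group means. No granule preparation overlaps a CA1 preparation for any of the 24 genes, which were picked for not overlapping; CA1 levels of the left-hand genes are mostly below 2, and granule levels of Mpped1, Lphn2 and Kit are at most 0.35.

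On the CA1 side, Pcnxl2, a pecanex-like membrane protein, had levels of 8.48 and 9.19 against 1.96, 3.04, 2.52 and 1.81 in granule preparations, a difference of -6.50 ± 0.59 (limma adjusted p = 2.5e-07). Kit, the receptor for stem cell factor, stood at 4.98 and 6.73 in CA1 against 0.35, 0.05, 0.27 and 0.26. Kit is thus among the genes that were nearly absent from granule nuclei. Galnt9, which starts O-linked sugar chains, was lower by 5.59 ± 0.69, with 9.62 and 8.13 in CA1 and 3.09, 2.86, 4.81 and 2.38 in granule preparations. Slc20a1, a phosphate transporter, was lower by 5.74 ± 0.61. Slc8a1, a plasma-membrane sodium-calcium exchanger, was detected in every CA1 nucleus and in 36%, 41%, 46.6% and 32% of granule nuclei.

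**Figure D2:**
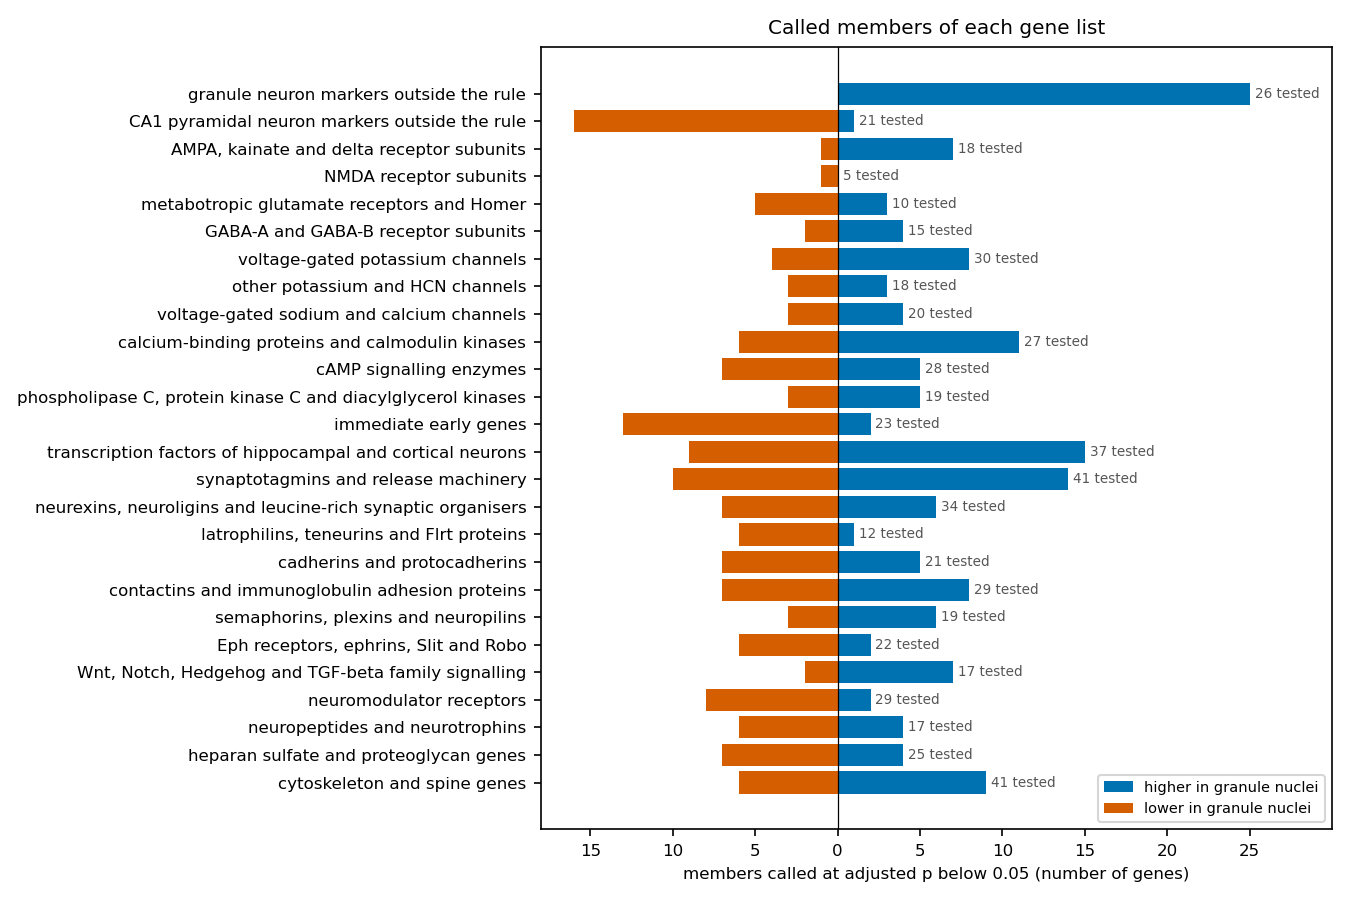
Number of members of each gene list called higher (bars to the right) or lower (bars to the left) in granule nuclei at a limma adjusted p below 0.05, with the number tested beside each pair of bars. The granule marker list runs to 25 on the right, the CA1 marker list to 16 on the left, and immediate early genes to 13 on the left against 2 on the right.

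Ionotropic glutamate receptors carry fast excitation and are built from subunits with auxiliary proteins. Of 18 AMPA, kainate and delta receptor genes, 7 were higher (background 9.47%) and 1 lower (background 9.95%), 4 and 1 of them with any single preparation left out. Gria4, an AMPA receptor subunit, was the lower one, at 1.86, 1.79, 1.53 and 1.96 in granule preparations against 3.78 and 7.77 in CA1 (-3.98 ± 0.75, limma adjusted p = 0.00077). The CA1 preparations differed from each other by more than the whole granule range. Gria1, another AMPA subunit, was higher by 1.22 ± 0.32 and near its ceiling of detection in both groups, in 91.3% or more of nuclei of every preparation. The kainate subunit gene Grik3 was higher by 2.82 ± 0.62. Shisa9, which slows AMPA receptor recovery, was higher by 3.39 ± 0.60. Cnih2, an AMPA receptor chaperone, passed at 2.79 ± 0.96, but its difference was 0.12 within number 1 and 5.83 within number 3, and without CA1 preparation 3 it was 0.04. Of 5 NMDA receptor genes 1 was called, a share near the 19.4% over all genes: Grin3a was lower by 2.60 ± 0.47. The other 4 (Grin1, Grin2a, Grin2b and Grin2d) lay between -0.05 and 0.20 and did not pass.

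Metabotropic glutamate receptors split by subtype. Grm2, a presynaptic receptor known from mossy fibres, had levels of 7.97, 9.37, 7.82 and 8.54 in granule preparations and 2.83 and 3.89 in CA1 (5.06 ± 0.59, limma adjusted p = 4.6e-06). Grm8, a presynaptic receptor, was lower by 1.96 ± 0.44, with detection of 20% and 39.1% in CA1 and at most 5.13% in granule preparations. Among all 10 receptor and Homer scaffold genes, 3 were higher and 5 lower (background 9.47% and 9.95%). Of these, 2 and 2 stayed called with any single preparation left out.

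For inhibition, 4 of 15 GABA receptor genes were higher and 2 lower in granule nuclei (background 9.47% and 9.95%). Of these, 3 and 2 stayed called with any single preparation left out. Gabrd encodes the delta subunit of extrasynaptic, tonically active receptors. It stood at 4.73, 3.90, 5.66 and 4.35 in granule preparations and 0.86 and 0.37 in CA1 (4.04 ± 0.57, limma adjusted p = 4.4e-05). Gabra4, a usual partner of the delta subunit, was higher by 2.65 ± 0.58, and Gabbr2, part of the metabotropic GABA-B receptor, by 3.01 ± 0.49. Gabra3 and Gabrg3 were lower by 3.57 ± 0.37 and 3.74 ± 0.50. Gabra3 was detected in at most 5.13% of nuclei in each granule preparation and in 53.3% and 43.5% of CA1 nuclei. Gabrb2, a beta subunit of synaptic receptors, differed by -0.05 and did not pass.

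Potassium channel genes were called in both directions. Of 30 voltage-gated potassium channel genes, 8 were higher and 4 lower (background 9.47% and 9.95%). With any single preparation left out, 7 and 3 stayed called. The Kv3 genes, which allow fast repolarization, divided: Kcnc4 was higher by 3.82 ± 0.55 and Kcnc1 by 3.49 ± 0.60, while Kcnc2 was lower by 4.02 ± 0.39. Kcnc2 stood at 0.23, 0.21, 0.33 and 0.09 in granule preparations against 4.55 and 3.92 in CA1. Kcna1, a subunit of low-threshold axonal channels, stood at 8.31, 8.37, 8.61 and 8.75 against 4.80 and 4.63 (3.80 ± 0.51). Kcnd2, an A-type channel, was higher by 3.37 ± 0.57, and Kcnip2, its cytosolic partner, by 3.12 ± 0.59. Kcnh1 was higher by 2.70 ± 0.53 and its relative Kcnh7 lower by 3.99 ± 0.57. The other 18 had differences from -1.39 (Kcnab1) to 1.43 (Kcnq3) and did not pass.

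Of 18 other potassium and HCN channel genes, 3 were higher (background 9.47%) and 3 lower (background 9.95%), all with any single preparation left out. Kcnn2, a small-conductance calcium-activated channel, had levels of 9.60 and 10.17 in CA1 and 3.50, 3.90, 3.61 and 2.92 in granule preparations (-6.40 ± 0.57, limma adjusted p = 2.2e-07). The CA1 preparations were both far above the whole granule range. Kcnt1, a sodium-activated channel, was lower by 4.67 ± 0.62. Hcn2, a pacemaker channel gene, differed by 0.07 and did not pass. Kcnk1, a 2-pore leak channel, was higher in granule nuclei by 3.87 ± 0.60.

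Among 20 sodium and calcium channel genes, 4 were higher and 3 lower (background 9.47% and 9.95%). The T-type calcium channel genes parted: Cacna1h was higher by 2.94 ± 0.60 and Cacna1g lower by 3.82 ± 0.53. Cacna1g stood at 2.11, 2.37, 2.70 and 2.18 in granule preparations and 6.21 and 6.11 in CA1, so each group was tight and they were well apart. Scn3a, a sodium channel gene, was higher by 2.96 ± 0.58, and Cacnb2, a calcium channel beta subunit, lower by 3.04 ± 0.62. Cacna1b, an N-type channel gene, was also called lower (-2.39 ± 0.64), but without CA1 preparation 3 it differed by -1.71 (limma adjusted p = 0.110).

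**Figure D3:**
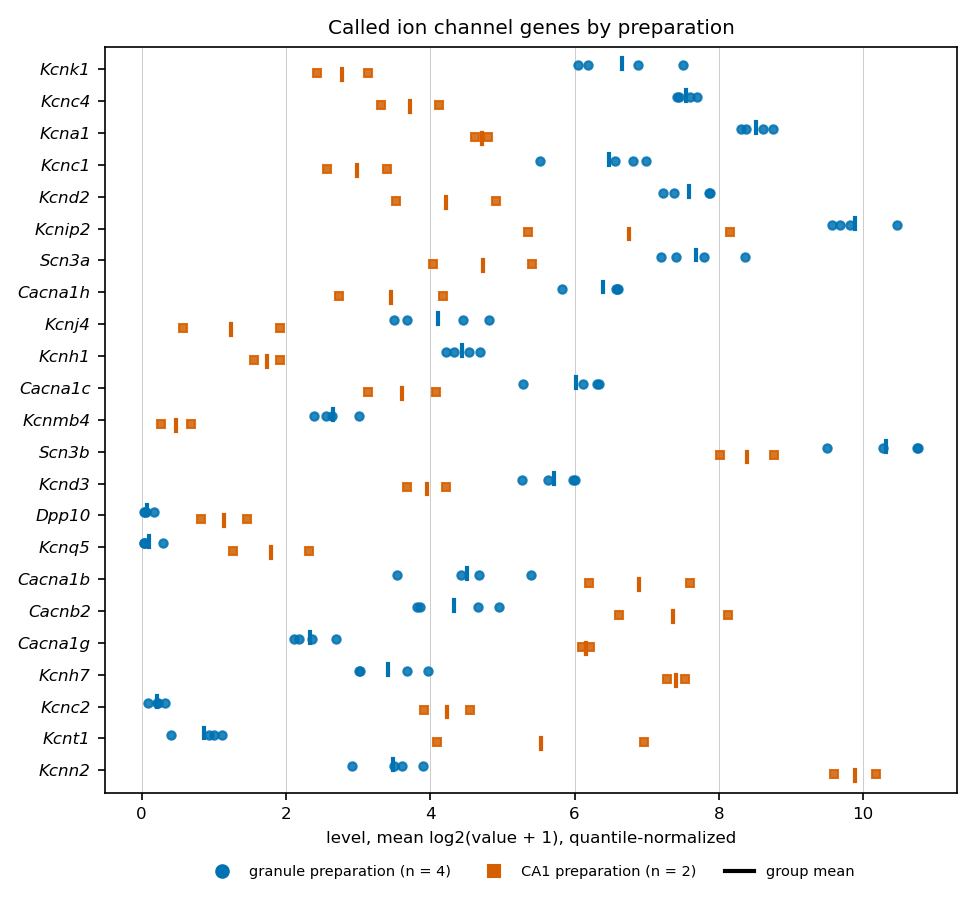
Levels (mean log2(value + 1) per preparation, quantile-normalized) of ion channel genes called at a limma adjusted p below 0.05, sorted by difference; circles are granule preparations, squares CA1 preparations, short lines group means. Kcnn2, Kcnt1 and Kcnc2 form the lower end, where Kcnc2 is at most 0.33 in all 4 granule preparations, and Kcnk1, Kcnc4 and Kcna1 the upper end.

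Of 27 genes of calcium-binding proteins and calmodulin kinases, 11 were higher and 6 lower (background 9.47% and 9.95%). The calls of 10 and 2 held with any single preparation left out. Camk2n1, an inhibitor of the calmodulin kinase CaMKII, had levels of 9.07, 9.44, 9.32 and 9.27 in granule preparations and 5.84 and 3.67 in CA1 (4.52 ± 0.57, limma adjusted p = 1.1e-05). The CaMKII subunit gene Camk2g was higher by 4.31 ± 0.52 and Camk2b by 1.27 ± 0.25. Camk2a, the main forebrain subunit, differed by 0.60 and did not pass. The calcium buffer Calb1 (6.57 ± 0.58) and the calcium sensor Ncald (6.84 ± 0.46), both on the granule marker list, were the largest differences of the list beside Pcp4 (9.06 ± 0.55), a calmodulin-binding peptide.

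In the cAMP pathway, genes of the same enzyme class lay on opposite sides. Of 28 genes, 5 were higher and 7 lower (background 9.47% and 9.95%), 3 and 7 with any single preparation left out. Pde1a, a calmodulin-stimulated phosphodiesterase, stood at 2.27, 2.40, 1.86 and 2.21 in granule preparations and 6.76 and 7.80 in CA1 (-5.10 ± 0.56, limma adjusted p = 2.1e-06). Its paralogue Pde1b stood at 6.86, 7.30, 6.68 and 6.81 against 2.05 and 2.54 (4.62 ± 0.56, limma adjusted p = 6.9e-06). The paralogues thus held mirror-image levels, each near 7 in 1 group and near 2 in the other. The calmodulin-stimulated adenylyl cyclase genes parted in the same manner, Adcy1 higher by 3.20 ± 0.45 and Adcy8 lower by 3.14 ± 0.45. Pde2a was lower by 4.58 ± 0.61 and Akap13, an anchoring protein of protein kinase A, by 4.32 ± 0.61.

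Of 19 phospholipase C, protein kinase C and diacylglycerol kinase genes, 5 were higher and 3 lower (background 9.47% and 9.95%). Dgkh, a kinase that removes the activator diacylglycerol, had levels of 8.48, 8.01, 8.40 and 8.51 in granule preparations and 3.22 and 2.86 in CA1 (5.31 ± 0.53, limma adjusted p = 8.0e-07). Both groups were tight and far apart. Prkcb, a calcium-dependent protein kinase C, was lower by 2.54 ± 0.50, and Prkce, a calcium-independent isoform, higher by 1.93 ± 0.44. Pitpnc1, a phosphatidylinositol transfer protein, was higher by 5.50 ± 0.59.

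Of 41 genes of synaptotagmins and the release machinery, 14 were higher and 10 lower (background 9.47% and 9.95%), 11 and 4 with any single preparation left out. Slc30a3, the transporter that loads zinc into mossy fibre vesicles, had levels of 9.69, 8.97, 9.88 and 9.12 in granule preparations against 4.83 and 3.50 in CA1 (5.25 ± 0.54, limma adjusted p = 9.3e-07). Rph3a, a Rab3 effector on vesicles, was higher by 5.72 ± 0.56. Synpr and Stxbp6, a vesicle membrane protein and a SNARE regulator, were higher by 8.71 ± 0.57 and 7.08 ± 0.59. Synaptotagmin genes were called both ways: Syt7, a calcium sensor that supports asynchronous release and facilitation, was higher by 3.28 ± 0.48 and Syt13 by 3.51 ± 0.54, while Syt4 was lower by 3.66 ± 0.59 and Syt12 by 3.09 ± 0.53. At the active zone, Rims1 was higher by 3.00 ± 0.65 and Rims2 lower by 2.68 ± 0.54. Rims2 was lower by 1.38 over all nuclei of the dissections (limma adjusted p = 0.0812). The core fusion protein genes Snap25 and Vamp2 had differences of -0.38 and -0.25 and did not pass.

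Of 12 latrophilin, teneurin and Flrt genes, 6 were lower (background 9.95%) and 1, Tenm1, was higher (background 9.47%). Of these, 5 and 0 stayed called with any single preparation left out. Differences were below 0 for 7 and above 0 for 5 of the 12. Lphn2, a latrophilin that marks CA1 dendrites and binds teneurins and Flrt proteins, had levels of 6.31 and 5.82 in CA1 and 0.05, 0.05, 0.33 and 0.24 in granule preparations (-5.90 ± 0.44, limma adjusted p = 2.5e-08). Lphn3 was lower by 4.14 ± 0.57, and their binding partners Tenm3 and Flrt2 by 3.83 ± 0.55 and 3.32 ± 0.52. Lphn1 differed by 0.81 and did not pass.

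Among 34 neurexin, neuroligin and leucine-rich organiser genes, 6 were higher and 7 lower (background 9.47% and 9.95%), 4 and 3 with any single preparation left out. Lrrtm4, a postsynaptic organiser of granule dendrites, had levels of 6.71, 7.54, 7.38 and 7.19 in granule preparations against 0.93 and 3.12 in CA1 (5.18 ± 0.64, limma adjusted p = 8.2e-06). Nptx1, a secreted pentraxin that clusters AMPA receptors, stood at 11.63, 11.66, 11.53 and 11.47 against 8.21 and 7.87 (3.53 ± 0.34). It was detected in 82.6% or more of the nuclei in every preparation, and its mean log2 level in the nuclei that held it was 11.58 to 11.68 in granule and 9.69 and 9.28 in CA1 preparations, before normalization. Il1rap, a synaptic partner of receptor phosphatases, was higher by 4.57 ± 0.55, Lingo1, an inhibitor of axon growth, lower by 3.75 ± 0.67, and Nrxn3 lower by 3.50 ± 0.63.

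Of 21 cadherins and protocadherins, 5 were higher and 7 lower (background 9.47% and 9.95%), 5 and 4 with any single preparation left out. Cdh9, a cadherin known from the mossy fibre synapse, stood at 4.68, 5.21, 4.43 and 5.52 against 0.58 and 0.45 in CA1 (4.44 ± 0.54, limma adjusted p = 7.8e-06). Cdh11 was lower by 2.91 ± 0.60. Pcdh17 and Pcdh8 were higher by 3.70 ± 0.56 and 3.28 ± 0.59, and Pcdh10 and Pcdh15 lower by 2.40 ± 0.44 and 2.47 ± 0.45. In the contactin and immunoglobulin list, 8 of 29 were higher and 7 lower (same background), 3 and 6 with any single preparation left out. Cntnap2, a contactin-associated protein of the axon, had levels of 6.42 and 6.42 in CA1 and 0.69, 1.22, 1.02 and 1.56 in granule preparations (-5.29 ± 0.50, limma adjusted p = 4.5e-07). Ntm, a glycolipid-anchored adhesion protein, was lower by 5.11 ± 0.55 and L1cam by 3.74 ± 0.66, and Igsf3 was higher by 4.07 ± 0.54.

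Guidance receptors showed the same division. Plxna4, a semaphorin receptor subunit, stood at 9.03, 8.99, 8.94 and 9.15 in granule preparations and 5.58 and 5.82 in CA1 (3.33 ± 0.47). Its paralogue Plxna1 was lower by 4.26 ± 0.61, with 2.15, 2.15, 2.92 and 1.86 against 5.54 and 7.51. In granule preparations Plxna4 lay far above Plxna1, while in CA1 preparation 1 the levels were alike and in CA1 preparation 3 Plxna1 was the higher. Epha7 was higher by 4.51 ± 0.50, Epha6 lower by 3.92 ± 0.60 and Ephb6 lower by 4.03 ± 0.57, and the ligand gene Efnb3 was higher by 3.64 ± 0.55. Sema5b was higher by 2.75 ± 0.44. Over the semaphorin list 6 of 19 were higher and 3 lower (background 9.47% and 9.95%), 2 and 3 with any single preparation left out. Over the Eph and Slit list 2 of 22 were higher, a share near the background, and 6 lower (2 and 4).

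Among Wnt, Notch, Hedgehog and TGF-beta family genes, 7 of 17 were higher and 2 lower (background 9.47% and 9.95%). The calls of 4 and 1 held with any single preparation left out. Wnt7b, a secreted Wnt ligand, was higher by 3.28 ± 0.57, at 4.10, 4.58, 5.04 and 3.26 against 0.98 and 0.95. Jag1 and Jag2, which encode Notch ligands, went opposite ways. Jag1 was detected in 63 of 236 granule nuclei and in 0 of 53 CA1 nuclei, which allows a share of up to 5.66%. Jag2 was lower by 2.10 ± 0.49.

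In the nucleus, 15 of 37 transcription factor genes were higher and 9 lower (background 9.47% and 9.95%). The calls of 11 and 7 held with any single preparation left out. Bcl11b, which is needed for granule cell maturation, had levels of 10.35, 10.26, 10.63 and 10.44 in granule preparations and 6.89 and 4.35 in CA1 (4.80 ± 0.56, limma adjusted p = 4.2e-06). Its paralogue Bcl11a was lower by 2.19 ± 0.52, and by 0.76 over all nuclei of the dissections (limma adjusted p = 0.341). Rfx3, a factor of ciliary genes, was higher by 4.89 ± 0.59, Zbtb20, a zinc-finger repressor needed for hippocampal development, by 4.57 ± 0.42, and Mef2c, an activity-dependent factor, by 4.50 ± 0.55. Meis2 and Foxp1 were lower by 4.27 ± 0.56 and 4.07 ± 0.58.

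Immediate early genes are transcribed by neurons within minutes of activity. Of 23 tested, 13 were lower (background 9.95%) and 2 higher (background 9.47%), and the median difference was -1.35. A gene was tested when at least 20% of the nuclei of any 1 preparation held it. Fos and Dusp1, held by no granule nucleus, passed only through CA1 and could come out only lower or uncalled. The count of lower genes and the median are thus partly set by that filter. With any single preparation left out, 9 of the 13 and 1 of the 2 stayed called. The ones that did not were Fos, Npas4, Egr4, Nptx2 and Bdnf. Dusp6, which switches off ERK, had levels of 5.90 and 2.86 in CA1 and 0.17, 0.45, 0.03 and 0.38 in granule preparations (-4.12 ± 0.58, limma adjusted p = 3.8e-05). Arc, which acts in synaptic scaling, stood at 6.12 and 2.91 against 0.10, 0.37, 0.29 and 0.16 (-4.28 ± 0.59). Egr1 was lower by 4.00 ± 0.56 and Nr4a3 by 3.74 ± 0.41. Both CA1 preparations lay above all granule preparations for each of these genes, and CA1 preparation 1 lay above CA1 preparation 3. Dusp1 was found in 0 of 236 granule nuclei, which allows a share of up to 1.27%, and in 20 of 53 CA1 nuclei (37.7%). Fos was likewise found in 0 of 236 granule nuclei and in 11 of 53 CA1 nuclei (20.8%). With the number of detected genes as covariate, 5 of the 13 lower calls were kept, and 11 of 13 in nuclei with 4000 to 6500 detected genes. In the covariate fit Arc differed by -1.68 (limma adjusted p = 0.11), Dusp6 by -1.60 (limma adjusted p = 0.118) and Junb by -2.39 (limma adjusted p = 0.0639), and Nptx2 stood at 0.08, the opposite sign. CA1 preparation 1, in which these 4 genes were highest, was also the preparation with the most detected genes per nucleus. How the tissue was handled before fixation is not given by the labels, and its part in these levels was not tested.

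**Figure D4:**
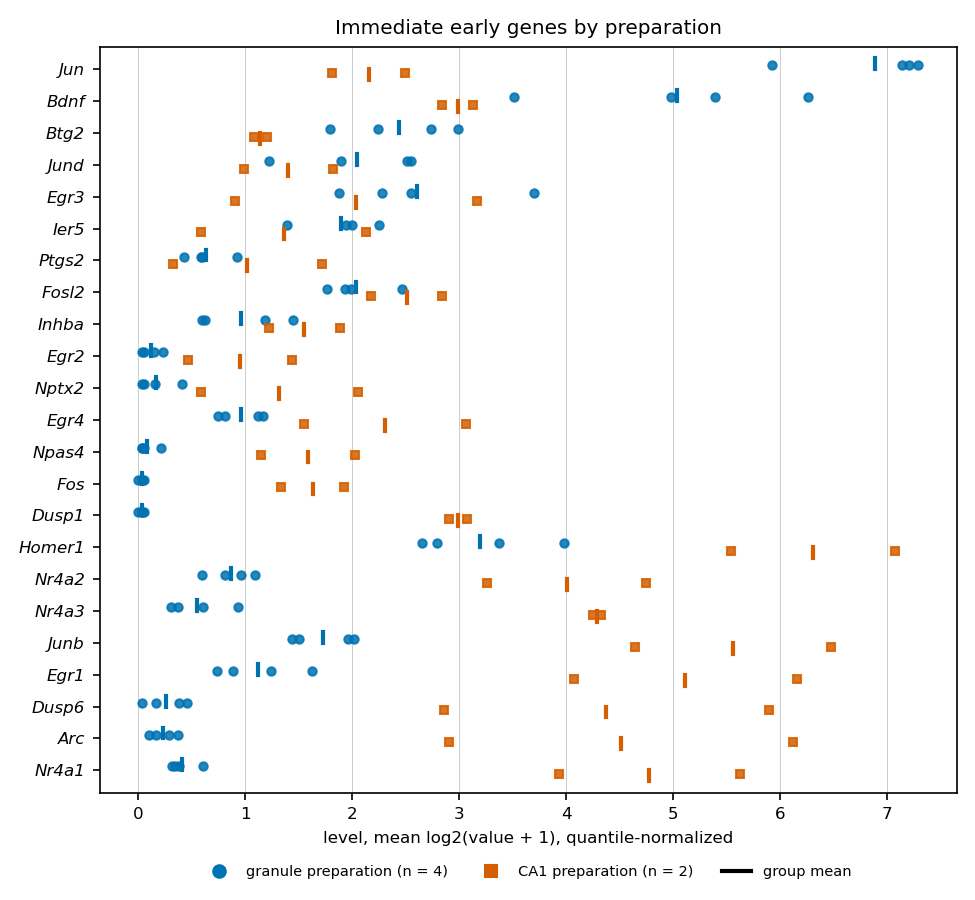
Levels (mean log2(value + 1) per preparation, quantile-normalized) of the 23 immediate early genes tested, sorted by difference; circles are granule preparations, squares CA1 preparations, short lines group means. Jun is the gene at the top, with granule levels from 5.92 to 7.29, and from Homer1 down to Nr4a1 every granule preparation lies below both CA1 preparations.

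Among the early genes, Nr4a1 is also on the CA1 marker list and Jun on the granule marker list. Jun was the exception that passed with any single preparation left out. It encodes a subunit of the AP-1 factor and stood at 7.29, 5.92, 7.21 and 7.14 in granule preparations against 1.81 and 2.49 in CA1 (4.74 ± 0.60, limma adjusted p = 1.1e-05). Its relative Junb stood at 2.02, 1.96, 1.44 and 1.50 against 6.48 and 4.65 (-3.83 ± 0.57), so the pair ran in opposite directions. Bdnf, a neurotrophin, was called higher (2.05 ± 0.67), with differences of 2.55 within number 1 and 0.38 within number 3. Its call ended without granule preparation 1, 2 or 4 (limma adjusted p = 0.093, 0.1005 and 0.0654). It also ended without either CA1 preparation, with differences of 1.89 without preparation 1 and 2.22 without preparation 3. With detected genes as covariate, Bdnf differed by 1.92 (limma adjusted p = 0.246).

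Promoters are shown for the lower genes Nr4a1 and Dusp1 and for the gene that went against them, Jun. Each line gives the 250 bases before the transcription start that RefSeq lists first on GRCm38.p6, with matches to TGACG or its reverse complement CGTCA in capitals, the half-site of the cAMP response element.
Nr4a1, chr15:101266596-101266845, plus strand: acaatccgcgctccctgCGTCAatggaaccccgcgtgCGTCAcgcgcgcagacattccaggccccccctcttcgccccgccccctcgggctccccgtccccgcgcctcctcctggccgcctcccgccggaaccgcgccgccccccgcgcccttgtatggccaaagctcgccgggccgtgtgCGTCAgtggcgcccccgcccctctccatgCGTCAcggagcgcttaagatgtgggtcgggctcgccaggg
Dusp1, chr17:26508473-26508722, minus strand: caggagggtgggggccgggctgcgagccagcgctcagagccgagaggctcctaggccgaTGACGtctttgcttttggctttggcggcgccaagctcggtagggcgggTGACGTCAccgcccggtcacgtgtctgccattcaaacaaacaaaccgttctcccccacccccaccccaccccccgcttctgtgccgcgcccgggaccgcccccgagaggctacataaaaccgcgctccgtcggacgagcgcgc
Jun, chr4:95052223-95052472, minus strand: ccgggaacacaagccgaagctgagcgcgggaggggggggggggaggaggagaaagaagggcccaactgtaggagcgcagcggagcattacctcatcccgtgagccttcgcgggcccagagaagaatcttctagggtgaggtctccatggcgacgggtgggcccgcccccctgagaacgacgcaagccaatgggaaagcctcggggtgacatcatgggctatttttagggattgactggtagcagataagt
The Nr4a1 sequence holds 4 matches, which begin 233, 213, 69 and 40 bases before the start. The Dusp1 sequence holds 3, at 191, 143 and 140 bases, of which the last 2 overlap on opposite strands. The Jun sequence holds no exact match, but it holds tgacatca, which differs in a single base from the TGACGTCA of the Dusp1 sequence. On either strand, the motif was present in 17.9% of 27025 promoters of this length, in 28.6% of the 8285 tested genes with a promoter in the table and in 10 of 19 immediate early genes matched. It was present in 9 of the 10 matched genes that were lower (all but Dusp6), and in neither Jun nor Bdnf. Only exact matches before the first listed start of each gene were counted, and other starts were not examined. The motif was chosen with these differences known, so the share describes the promoters, and a match is not a site of binding.

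Of 29 receptor genes for neuromodulators, 8 were lower (background 9.95%) and 2 higher (background 9.47%), 4 and 0 with any single preparation left out. The other 19 did not pass, and the median difference over the 29 was -0.43. Sstr4, a somatostatin receptor, had levels of 7.40 and 6.83 in CA1 and 1.10, 1.90, 2.64 and 1.63 in granule preparations (-5.30 ± 0.57, limma adjusted p = 1.8e-06). Cnr1, the presynaptic cannabinoid receptor, was lower by 4.77 ± 0.57, at 4.40 and 6.82 against 0.71, 0.66, 1.18 and 0.80. Ntrk2, the BDNF receptor, was lower by 2.34 ± 0.55. Cckbr, a cholecystokinin receptor, was found in 0 of 236 granule nuclei, which allows a share of up to 1.27%, and in 13 of 53 CA1 nuclei (24.5%). Without CA1 preparation 1 it was too low to be tested, so its call rests on that preparation.

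Among 17 secreted peptide and growth factor genes, 4 were higher and 6 lower (background 9.47% and 9.95%). The calls of 2 and 1 held with any single preparation left out. Pdyn, the dynorphin precursor of mossy fibres, stood at 3.09, 2.90, 3.57 and 2.41 in granule preparations against 0.14 and 0.04 in CA1 (2.90 ± 0.45, limma adjusted p = 0.00012). Igfbp5, which binds insulin-like growth factors, was higher by 5.51 ± 0.56, and Fgf12, an intracellular sodium channel partner, lower by 3.03 ± 0.57. Cck, which encodes cholecystokinin, varied between granule preparations, with 9.46, 6.00, 9.81 and 6.44 against 11.85 and 10.66. It was lower by 3.33 ± 0.81, but by 2.77 with a limma adjusted p of 0.0877 without CA1 preparation 1.

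Enzymes that sulfate heparan chains, which tune growth factor binding at the cell surface, were lower in several related genes. Ndst3 stood at 6.19 and 6.98 in CA1 and at 0.62, 0.62, 0.77 and 1.08 in granule preparations (-5.82 ± 0.49, limma adjusted p = 1.5e-07). Hs6st3 was lower by 4.99 ± 0.44 and Hs6st2 by 3.46 ± 0.39, whereas Hs6st1, Ndst1 and Ndst2 had differences of 0.87, 0.34 and 0.85 and did not pass. Among the core proteins, Gpc4, a glypican that acts in mossy fibre synapses, was higher by 4.19 ± 0.59 and Gpc5 lower by 1.81 ± 0.33. Over the list, 4 of 25 were higher and 7 lower (background 9.47% and 9.95%), 3 and 6 with any single preparation left out.

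Of 41 cytoskeletal and spine genes, 9 were higher and 6 lower (background 9.47% and 9.95%), 8 and 4 with any single preparation left out, and the median difference was 0.05. Stmn2, a microtubule destabilizer, had levels of 8.26 and 8.55 in CA1 and 3.13, 2.47, 2.08 and 1.49 in granule preparations (-6.11 ± 0.59). Tubb3, the neuronal tubulin, was lower by 6.18 ± 0.62. Arhgap20, which switches off small GTPases, was higher by 4.72 ± 0.52, and Tiam1, a Rac activator of spines, by 4.59 ± 0.66.

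Long noncoding RNAs that stay in the nucleus also moved, 4 of 8 lower (background 9.95%) and 1 higher (background 9.47%). Meg3, Rian and Mirg, neighbouring transcripts of the imprinted locus on chr12, were lower by 2.69 ± 0.22, 4.57 ± 0.55 and 4.87 ± 0.59, and Snhg11 by 4.77 ± 0.33. Snhg11 was detected in 96.7% and 100% of CA1 nuclei and in 95.5%, 89.7%, 91.4% and 90% of granule nuclei, and its mean log2 level in the nuclei that held it was 10.05 to 10.59 in granule and 14.72 and 14.67 in CA1 preparations, before normalization. Over all nuclei of the dissections Meg3 was lower by 0.62 (limma adjusted p = 0.108). The summed share of the list was 1.25% to 1.53% of a nucleus's signal in granule and 2.52% to 3.08% in CA1 preparations. Malat1, the highest gene in granule nuclei, and Meg3, the highest in CA1, were at the same normalized value in each preparation of their group, because quantile normalization fixes the top of the distribution. The SEs and calls of Malat1 and Meg3 are thus partly set by the normalization. On the scale as deposited they differed by 0.76 and -2.62. The call of Malat1 ended over all nuclei of the dissections. With detected genes as covariate Malat1 differed by 0.35 (limma adjusted p = 0.311).

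Members of several gene families, defined by a shared symbol stem, were called in opposite directions. Among 24 lists of neuronal function, 130 families had at least 2 tested members. In 31 of them a called member was higher and another lower, in 35 called members were only higher, in 43 only lower, and in 21 none was called. Both directions held with any single preparation left out in 19 of the 31, among them Gria, Grm, Gabra, Kcnc, Kcnh, Adcy, Pde1, Prkc, Bcl11, Syt, Rims, Plxna, Epha, Jag and Gpc. Families vary in size and were grouped by symbol alone, and no chance level was computed for these counts.

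**Figure D5:**
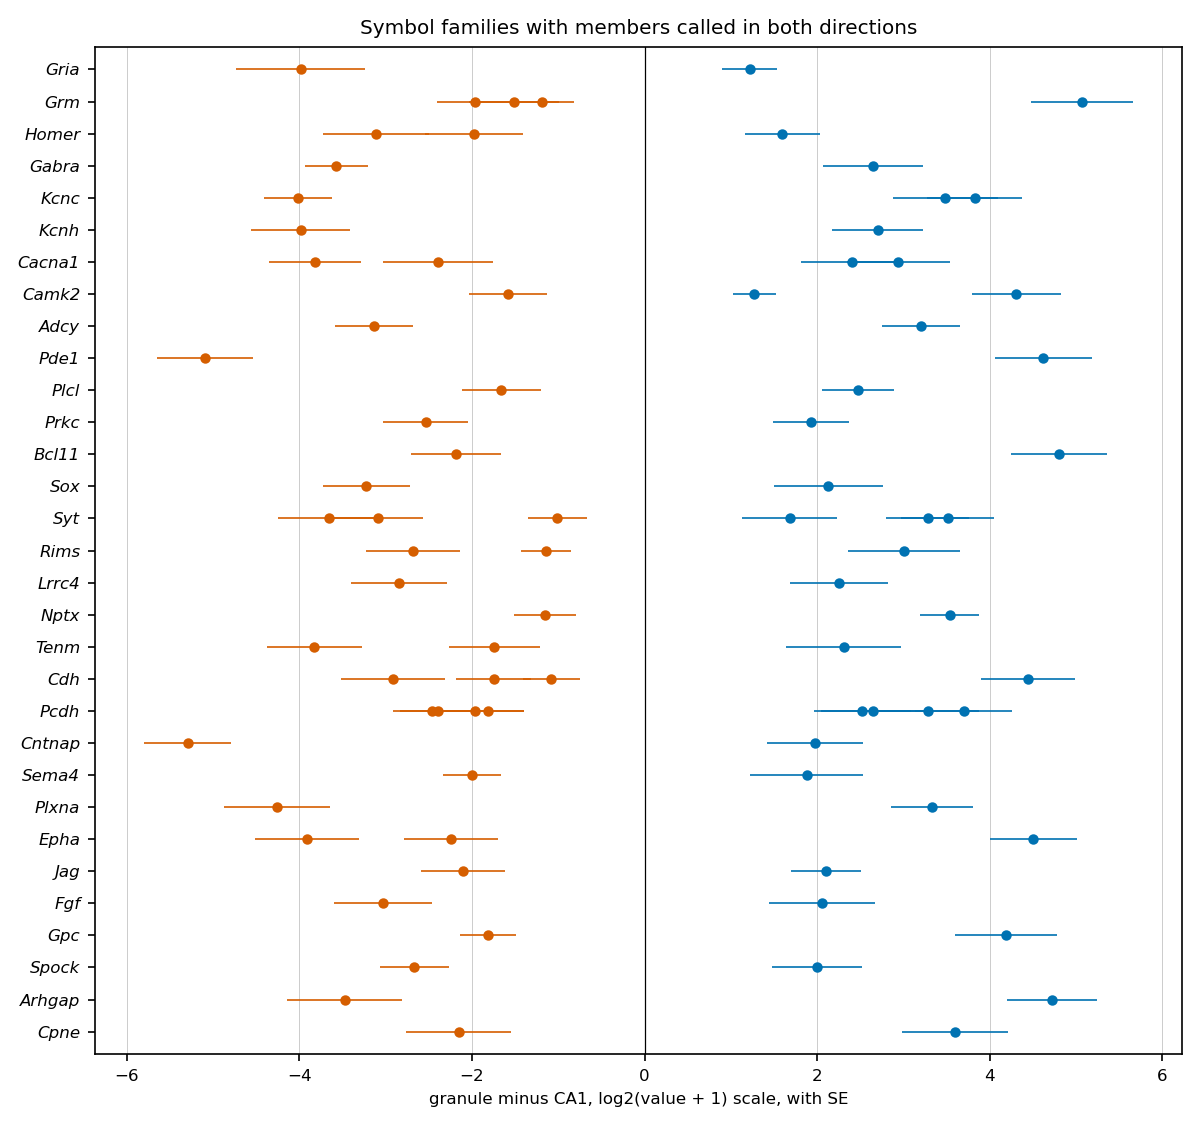
Difference between granule and CA1 levels (log2(value + 1) scale; bars are SE) for called members of the 31 symbol families with members in both directions; each point is a gene, blue higher and orange lower in granule nuclei. In Pde1 the points sit at 4.62 and -5.10, in Plxna at 3.33 and -4.26, and in Bcl11 at 4.80 and -2.19.

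Markers of other cell types were mostly too low to be tested. Gad1, which makes GABA and which mature granule neurons are known to transcribe at a low level, was detected in 51.7%, 76.9%, 70.7% and 64% of granule nuclei against 3.33% and 8.70% of CA1 nuclei (5.66 ± 0.63). The vesicular GABA transporter gene Slc32a1, which defines inhibitory neurons, was found in 1 of 236 granule nuclei and in 0 of 53 CA1 nuclei, which allows up to 5.66%. Gad2 had to be 0 by rule in both groups. Of the 15 inhibitory markers, 3 were high enough to be tested, among them Gad1 and Adarb2. St18, a zinc-finger factor on the oligodendrocyte list, was higher by 5.28 ± 0.57, while Mbp, Ermn and Cnp of that list had differences from -0.47 to 1.12 and did not pass. Summed levels of the astrocyte list were 0.0132% to 0.0292% of the signal in granule and 0.0363% to 0.0402% in CA1 preparations, those of the inhibitory list 0.0261% to 0.0335% and 0.00822% to 0.00894%, and those of the microglial list 0.0011% to 0.0125% and 0.00414% to 0.0120%. Of the genes tested, 3 were higher and 3 lower of 12 on the CA3 and CA2 list, 2 and 2 of 6 on the mossy cell list, 2 and 1 of 7 on the immature neuron list, 2 and 1 of 5 on the astrocyte list, 0 and 1 of 2 on the microglial list, 1 and 0 of 2 on the Cajal-Retzius and subicular list and 0 and 0 of 1 on the oligodendrocyte precursor list. The background for these counts was 9.47% higher and 9.95% lower. No endothelial marker was high enough to be tested. The part of RNA from other cells in the differences above was not tested. Drd2, 1 of 10 mossy cell markers, was found in 0 of 236 granule nuclei, which allows up to 1.27%, and in 1 of 53 CA1 nuclei. It was the only mossy cell marker found in no granule nucleus. The others were found in 1 to 173 of the 236.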

How the data were processed

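Single-nucleus RNA was measured in 924 nuclei, of which 404 came from the dissections compared. The deposited table holds, per gene and nucleus, the natural log of a TPM-like value plus 1, made by the authors with Bowtie2 (version not given in the sources used here) and RSEM 1.27 on mm10 (GRCm38), per the submitters' processing notes. The base and the added 1 were read from the values. Depth in reads is unknown. No doublet caller was run, and the 404 columns used are distinct.

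Values were back-transformed, and log2(value + 1) was averaged over the nuclei of a preparation. The 11188 genes with a value above 1 in at least 20% of nuclei of 1 preparation were quantile-normalized over 6 preparations and fitted with limma 3.58.1 (R 4.3.3, variance trend, 2-sided, 4 residual degrees of freedom, Benjamini-Hochberg adjustment over all tested genes, threshold 0.05). In every list, a gene that passed this filter through 1 group only had little room to be called higher in the other. The 13 rule genes stayed in the fit and out of the counts. P1 and P2 nuclei of number 1 were merged, since the labels do not say what P means. The limit from 0 nuclei is 3 nuclei of the total and covers counting error only. Genes named are the 12 with the largest difference in each direction, up to 4 called members of each list, all region markers, and paralogues called in opposite directions; other genes were added after their values were seen, for their role. Some genes are counted in the lists but not reported by name here or drawn in the figures of single genes. The script was checked on simulated data. Members, lists and rules were chosen with earlier results of these data known. Averages and figures were made with pandas 2.3.3, numpy 2.4.6 and matplotlib 3.10.9, and the exact test with scipy 1.17.1.

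The alternatives changed scaling, pseudocount, filter, covariate, replicate block, gate, depth window and the preparations used. One of them, numbers 1 and 3 alone, was chosen after seeing the data.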

Additional observations from a re-analysis of the deposited data

Results flagged for a closer look

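In 7 genes, 1 granule preparation lay far from the other 3, by Dixon's criterion, which chance meets in about 1 in 20 groups. The criterion was run on the 161 genes under the naming rule, less those not reported by name. At that rate chance alone gives several such genes. The levels that stood apart on the low side were Calb1 at 7.92 in granule preparation 1, Il1rap at 8.48 and Cacna1h at 5.83 in granule preparation 3, and Jun at 5.92 in granule preparation 2. Those that stood apart on the high side were Sez6, a CA1 gene, at 3.72 in granule preparation 1, Aldoc, an astrocyte marker, at 1.68 in granule preparation 1, and Lefty1, a CA1 marker, at 0.43 in granule preparation 4. All 7 genes were on the same side of the CA1 preparations in every granule preparation.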

How the results depend on the processing

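The 2172 calls were recomputed under 24 alternatives, and 385 of them held under all 24, as did 105 of the 156 called named genes. As shares of the genes tested, 9.47% were higher and 9.95% lower. Shares that moved by more than 1.5 times were 4.93% higher and 16.3% lower as deposited, 6.09% and 4.47% on log2 of the mean value, and 3.85% higher with the share of nuclei detected, where 13.8% were lower. With no filter, 20484 genes were tested and 2.93% were higher and 3.78% lower. Higher calls made up 48.8% of calls, 23.2% as deposited, 58.9% with the median subtracted and 21.8% on the share of nuclei detected. Numbers 1 and 3 alone, chosen after seeing the data, gave 4.81% and 4.24%. The fit with the number as a replicate block gave 5.98% higher and 6.44% lower; same-numbered preparations deviated together at r = 0.1154 for number 1 and -0.0051 for number 3, and whether a number stands for anything shared is not stated. Leaving out 1 preparation at a time gave 6.77% to 11.5% higher and 6.91% to 13.5% lower. Of 340 called genes on the lists, named or in split families, 237 kept the call without each preparation in turn. The covariate for detected genes kept 1185 of the 2172 calls and ended 28 of the 156 named ones. Directions of genes under the naming rule reversed in 4 cases: Lefty1 (0.42) and Pou3f1 (0.46) with the number of detected genes as covariate, Meg3 (0.0095) on the share of nuclei detected, and Slc1a2 (-0.0023) on log2 of the mean value. The cause of these shifts was not tested. The depth in reads is unknown, and the 2 CA1 preparations limit precision most.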
